A study of Mus musculus with 3 samples.

Results

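Mitochondrial protein import was followed through 10 genes of the TOM and TIM translocases in polysome gradients of cultured mouse lymph node stromal cells that had received Eif4g3 siRNA or control siRNA. The members were chosen by gene name, with earlier results of these arrays known, as Tomm20, Tomm22, Tomm70a and Tomm40 of the outer membrane, Timm8b, Timm9, Timm10 and Timm13 of the intermembrane space, and Timm17a and Timm23 of the inner membrane. They are 10 of 27745 gene names and carry 20 of 41174 probes. The measure read for them was the red over green ratio, Eif4g3 siRNA over control siRNA, so all ratios below are descriptions of the chosen genes and none was tested.

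Most mitochondrial proteins are made on cytosolic ribosomes and enter the organelle through these machines. The TOM complex of the outer membrane recognises precursors and passes them through the Tomm40 channel. Small TIM proteins then chaperone hydrophobic precursors across the intermembrane space, and the TIM23 complex takes precursors with a presequence into or across the inner membrane. The siRNA target Eif4g3 encodes eIF4GII, a scaffold that helps bring ribosomes to capped mRNAs.

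The cells came from BALB/c mice and were grown in 10 cm dishes to about 80% confluency before transfection with 400 pmol of Eif4g3 siRNA or control siRNA. They received fresh medium after 24 h and were collected after 48 h. For each siRNA, 7 plates were pooled into 1 lysate and separated on a sucrose gradient of 10% to 60%, from which RNA of the top, the light polysomes and the heavy polysomes was taken. Each fraction was hybridised to 1 dual-colour array on which Cy5 marked the Eif4g3 siRNA cells and Cy3 the control siRNA cells, so there is no replicate, no dye swap and no test, and array cannot be told apart from fraction, nor dye from siRNA. All 3 arrays lay on 1 slide with 1 scan time.

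Eif4g3 itself had a log2 ratio of -0.43 ± 0.16 (top), -1.06 ± 0.16 (light) and -1.77 ± 0.19 (heavy). Each error after ± is the scanner software's spot error on the log2 scale, combined over a gene's probes, and covers the spot and not the culture. The software computed this error for its own ratio, not for the newly normalized and more compressed ratios printed here. Setting a ratio against its error is therefore only a rough guide. The arrays measured 10942 to 14404 genes, and the top array was the dimmest, with 34.8% of probes above background in both channels against 50.2% and 51.6%. Before normalization the upper quartile of net signal was 636 (Eif4g3 siRNA) and 265 (control siRNA) on the light array. It was 340 and 977 on the heavy array, and 37.0 and 38.2 on the top array. Normalized ratios are therefore relative to the other mRNAs of the same array and are not amounts. All 8 fibroblastic stroma markers, such as Pdpn and Pdgfrb, were measured on every array. Of 5 endothelial markers with a probe 2 were measured on any array, of 5 leukocyte markers 3 and of 3 epithelial markers 2, while Pecam1, Ptprc and Itgam were not well above background in either channel of any array. In pooled cells, fewer cells of a type and less RNA per cell cannot be told apart.

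The starts of the mRNAs are shown first, because eIF4G proteins act at the capped 5′ end. Promoters of all 10 members were found in the RefSeq table (GRCm38.p6), and 6 are printed as examples. Timm8b had the highest heavy ratio, Tomm40 the lowest heavy ratio and Timm10 the lowest top ratio, and Timm17a, Tomm20 and Tomm22 hold motifs described here. Each line holds 60 bases before the annotated start in lower case and the first 30 transcribed bases in capitals.
Timm8b, chr9:50603841-50603930, plus strand: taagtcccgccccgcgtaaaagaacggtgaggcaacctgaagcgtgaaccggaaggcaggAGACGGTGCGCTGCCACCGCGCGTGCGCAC
Timm10, chr2:84826961-84827050, plus strand: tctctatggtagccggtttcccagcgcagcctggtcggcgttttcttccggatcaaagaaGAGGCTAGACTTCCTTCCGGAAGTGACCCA
Timm17a, chr1:135313708-135313797, minus strand: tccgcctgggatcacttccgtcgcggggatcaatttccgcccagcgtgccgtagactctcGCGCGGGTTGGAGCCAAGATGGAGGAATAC
Tomm20, chr8:126945892-126945981, minus strand: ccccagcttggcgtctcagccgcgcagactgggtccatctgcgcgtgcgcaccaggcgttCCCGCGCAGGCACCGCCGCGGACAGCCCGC
Tomm22, chr15:79670808-79670897, plus strand: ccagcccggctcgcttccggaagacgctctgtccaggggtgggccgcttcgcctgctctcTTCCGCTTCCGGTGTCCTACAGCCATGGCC
Tomm40, chr7:19715400-19715489, minus strand: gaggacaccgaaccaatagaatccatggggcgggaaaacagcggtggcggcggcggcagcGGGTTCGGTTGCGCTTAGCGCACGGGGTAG

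A 5′ terminal tract, searched as a C at the first transcribed base followed by 4 pyrimidines, marks mRNAs of ribosomal proteins and elongation factors. It was present in 0 of the 10 members' starts, against 2.49% of 7840 promoters of genes measured on all arrays and 2.51% of all 32851 promoters. The search needs the C exactly at the annotated start, so the count depends on that base. In Tomm22 a start 1 base earlier would give a match, CTTCC. The letters AAGATGG on the gene's own strand, the core of an element known from mRNAs with very short leaders, occurred within the first 50 transcribed bases of 1 member. That member is Timm17a, where they begin at base 16, against 2.6% of promoters of measured genes and 1.3% of all promoters.

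Binding motifs were searched on both strands of the window of 250 bases before and 50 after the start. CCGGAAG, a core of ETS family sites, was found in 5 of 10 members (Timm8b, Timm10, Timm23, Tomm22 and Tomm70a), against 17.8% of promoters of measured genes and 8.86% of all promoters. In Timm10 matches on opposite strands overlap, at bases 14 and 17. The NRF1 motif, GCGCA and GCGC with 1 free base between them, is the site of a regulator of nuclear genes for mitochondrial proteins. It was found in 2 of 10 members, Timm8b and Tomm20, against 10.3% of promoters of measured genes and 4.6% of all promoters, and it overlaps no CCGGAAG there. Matches describe the letters of these windows and say nothing of binding.

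Across the 10 members, ratios were mostly below 0 in the top fraction and mostly above 0 in heavy polysomes. Along the gradient the members' median log2 ratio was -0.23, 0.00 and 0.18, where all measured genes had medians of 0.00, 0.02 and -0.01. In the top fraction 2 of 10 members were above 0, as were 50.4% of all genes. In light polysomes 5 of 10 were above 0, as were 52.6% of all genes. In heavy polysomes 8 of 10 were above 0, as were 48.3% of all genes, with Timm23 barely so. Without loess, the dye correction that follows signal strength, this heavy count was 6 of 10. The members' heavy median was then 0.03, where all genes had 0.02, so their heavy excess depends on the dye correction.

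A gene was called at 2-fold, a log2 value of 1 or -1, and 0 of 10 members were called on an array. Of all genes, 0.43% were called higher and 0.265% lower in the top, 0.397% and 0.291% in the light, and 0.507% and 0.305% in the heavy fraction, so 0 of 10 is near the background.

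**Figure D1:**
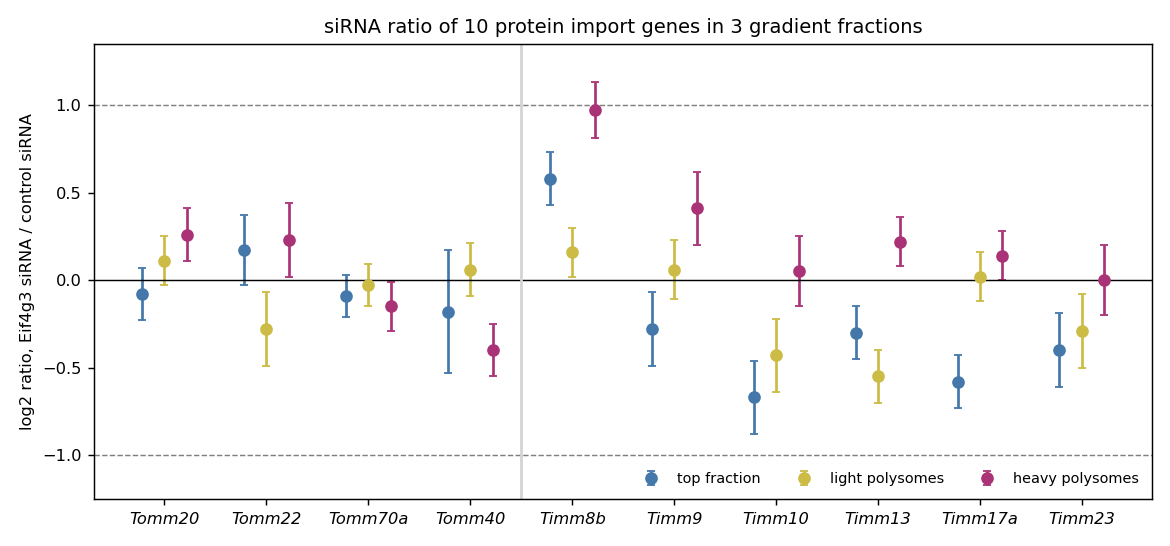
The vertical axis gives the log2 siRNA ratio, Eif4g3 over control, for each import gene in the top, light and heavy fractions, with the spot error as bars and dashed lines at 2-fold. Timm8b in heavy polysomes, at 0.97, is the point nearest to a dashed line, and the inner and intermembrane space genes on the right have their heavy value above their top value.

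The receptors of the outer membrane had small ratios. Tomm20, which binds presequences, had normalized log2 signals of 10.80 (top), 11.23 (light) and 10.86 (heavy) with Eif4g3 siRNA, against 10.89, 11.11 and 10.60 with control siRNA. These signals are set to 1 distribution across arrays, so they follow 1 gene along the gradient relative to other mRNAs and do not compare genes. The Tomm20 ratios were -0.08 ± 0.15, 0.11 ± 0.14 and 0.26 ± 0.15, of which only the heavy value exceeds its error.

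Tomm22, the central receptor of the complex, had signals of 11.33, 10.57 and 9.92 with Eif4g3 siRNA and 11.16, 10.84 and 9.69 with control siRNA. Relative to other mRNAs, its signal was highest at the top of the gradient in both channels. The ratio was 0.17 ± 0.20 (top), -0.28 ± 0.21 (light) and 0.23 ± 0.21 (heavy), so its light value was below both others, as were those of Timm8b and Timm13.

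Tomm70a, the receptor for carrier precursors brought by cytosolic chaperones, had ratios of -0.09 ± 0.12, -0.03 ± 0.12 and -0.15 ± 0.14, the smallest range of the 10 genes. On the 3 probes measured in every fraction its signals were 10.44, 11.09 and 11.15 with Eif4g3 siRNA, against 10.53, 11.12 and 11.38 with control siRNA. Relative to other mRNAs, its signal was higher in polysomes than at the top in both channels.

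Tomm40, the channel itself, had the lowest heavy ratio of the members, -0.40 ± 0.15, after -0.18 ± 0.35 in the top and 0.06 ± 0.15 in the light fraction. The top value rests on 1 dim probe, with net signals of 12.7 (Eif4g3 siRNA) and 25.2 (control siRNA). It was -0.57 at a normexp offset of 0 and -0.89 with the scanner software's ratio. On the probe measured in every fraction its signals were 7.34, 8.20 and 8.46 with Eif4g3 siRNA and 7.52, 8.27 and 9.22 with control siRNA. Its 2 probes differed, however, with -0.76 and -0.04 in heavy polysomes. The files place the first at chr7:18872260-18872850 on the minus strand and the second at chr7:18872831-18873510 on the plus strand (mm8), so the probe with the value near 0 is listed on the strand opposite to the gene.

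Timm8b, a small TIM protein of the intermembrane space, stood apart from the other members. Its signals were 15.10, 14.77 and 12.90 with Eif4g3 siRNA, against 14.52, 14.61 and 11.93 with control siRNA. After normalization the Eif4g3 siRNA signal was thus the higher one in all 3 fractions. Before normalization the heavy net signals of its 2 probes were 16426 and 8527 with Eif4g3 siRNA, below the 17045 and 12864 with control siRNA. The ratio was 0.58 ± 0.15 (top), 0.16 ± 0.14 (light) and 0.97 ± 0.16 (heavy), which is 1.95-fold. Only 0.555% of genes had a higher heavy ratio and 2.85% a higher top ratio. Its probes lie at chr9:50357239-50357298 and chr9:50357495-50357554 on the plus strand (mm8) and had 0.72 and 1.22 in heavy polysomes, so 1 of its 2 probes passes 2-fold.

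Timm9 and Timm10 form the hexamer that carries hydrophobic precursors to the inner membrane. Timm10 had the lowest top ratio of the members, -0.67 ± 0.21, with -0.43 ± 0.21 in light and 0.05 ± 0.20 in heavy polysomes. Its signals were 12.90, 13.50 and 13.19 with Eif4g3 siRNA and 13.57, 13.93 and 13.14 with control siRNA, so the channels met only in heavy polysomes. Timm9 had ratios of -0.28 ± 0.21, 0.06 ± 0.17 and 0.41 ± 0.21. It had signals of 9.29, 10.02 and 9.64 with Eif4g3 siRNA, against 9.57, 10.05 and 9.22 with control siRNA. Both genes thus had a ratio that was lower at the top than in heavy polysomes, and each rests there on 1 measured probe.

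Timm13, the partner of the TIM8 proteins, had ratios of -0.30 ± 0.15 (top), -0.55 ± 0.15 (light) and 0.22 ± 0.14 (heavy). Its light ratio was the lowest of the members, and 96.7% of genes had a higher one. The signals were 14.87, 14.78 and 13.82 with Eif4g3 siRNA and 15.17, 15.33 and 13.60 with control siRNA. Its 2 probes (chr10:80303217-80303276 and chr10:80303223-80303282, minus strand, mm8) share most of their bases, so their like values of -0.57 and -0.53 in the light fraction are not 2 separate readings. The errors given for Timm13 treat them as separate and are therefore too small. Either probe alone had an error of 0.21 in the top and light fractions and 0.20 in the heavy fraction. Timm8b and Timm13 thus differed in direction in the top and light fractions.

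Timm17a and Timm23 are core subunits of the TIM23 complex, and both had top ratios below 0. Timm17a had ratios of -0.58 ± 0.15 (top), 0.02 ± 0.14 (light) and 0.14 ± 0.14 (heavy). Its signals were 11.89, 12.74 and 12.95 with Eif4g3 siRNA, against 12.47, 12.72 and 12.80 with control siRNA, so the channels differed at the top and hardly in polysomes. Its probes at chr1:137118020-137118079 and chr1:137120854-137120913 (minus strand, mm8) had -0.62 and -0.53 in the top fraction. Timm23 had -0.40 ± 0.21, -0.29 ± 0.21 and 0.00 ± 0.20, and signals of 12.56, 12.97 and 12.71 with Eif4g3 siRNA and 12.95, 13.26 and 12.70 with control siRNA. It rests on 1 probe.

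**Figure D2:**
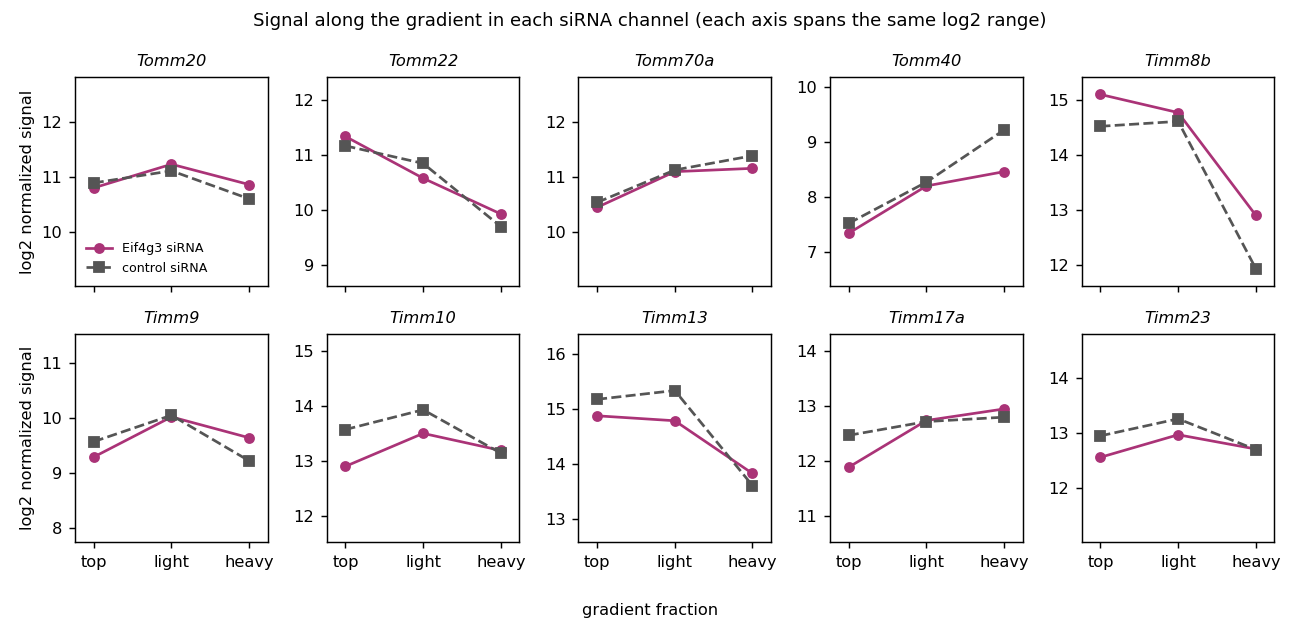
Normalized log2 signal (vertical axes, all spanning the same range) of each import gene in the top, light and heavy fractions, for Eif4g3 siRNA (circles) and control siRNA (squares), over probes measured in every fraction. The lines of Timm9, Timm13, Timm17a and, less so, Tomm20 have Eif4g3 siRNA below control siRNA at the top and above it in heavy polysomes, and those of Timm10 and Timm23 meet there.

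The difference of the heavy and top ratios asks whether an mRNA was placed differently along the gradient under the 2 siRNAs, measured against the other mRNAs. All 6 TIM members had a positive difference and the 4 TOM members were divided. Timm17a had 0.72 ± 0.21, Timm10 0.72 ± 0.29, Timm9 0.69 ± 0.30, Timm13 0.51 ± 0.21, Timm23 0.40 ± 0.29 and Timm8b 0.39 ± 0.22, each larger than its spot error. Of all genes, 3.99% lay above Timm10 and 15.6% above Timm8b. Among the TOM members Tomm20 had 0.34 ± 0.21, Tomm22 0.06 ± 0.29, Tomm70a -0.14 ± 0.17 and Tomm40 -0.58 ± 0.41. A difference uses only the probes measured on both of its arrays, so it can depart from the difference of the ratios printed above. This applies to Tomm40, where the value rests on the 1 probe with -0.76 in the heavy and -0.18 in the top fraction, to Tomm70a and, for heavy minus light, to Timm9. The Tomm40 value was 0.00 with the scanner software's ratio, so its direction was not settled.

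The median difference was 0.40 over the 10 members, 0.60 over the 6 TIM and -0.04 over the 4 TOM members, and 0.00 over 10721 genes. The division into TIM and TOM was made after the values were seen, and the further genes of these complexes hardly show it. There the median was 0.24 over 6 TIM genes, from -0.38 (Timm44) to 0.78 (Fxc1), and 0.20 over 3 TOM genes, from -0.01 (Tomm34) to 0.85 (Tomm7). Above 0 were 8 of 10 members, as were 49.9% of all genes. None was called at 2-fold, against 0.811% of genes higher and 0.7% lower. Leaving out Timm13, whose probes overlap, different probes of a gene had the same sign of this difference in each of the 4 members with several probes, for instance 0.79 and 0.65 in Timm17a and 0.57 and 0.21 in Timm8b. Ratios on the dim top array were the most compressed, with a slope of 0.571 on the software's ratios against 0.721 on the heavy array.

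**Figure D3:**
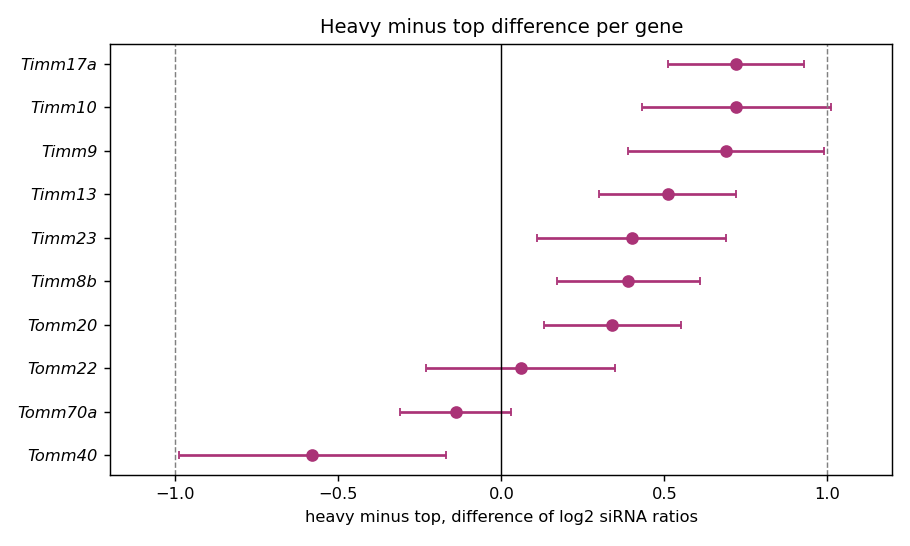
Heavy minus top difference of the log2 siRNA ratios (horizontal axis) per import gene, with the combined spot error as bars and dashed lines at 2-fold. The TIM genes lie between 0.39 and 0.72, and Tomm22, Tomm70a and Tomm40 lie at 0.06 or below.

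The heavy minus light difference was largest for Timm8b and Timm13. Among the small TIM genes it was 0.81 ± 0.21 for Timm8b, 0.76 ± 0.21 for Timm13, 0.48 ± 0.29 for Timm10 and 0.45 ± 0.29 for Timm9. Only 0.438% of genes lay above Timm8b and 0.709% above Timm13. The TIM23 core genes had 0.30 ± 0.29 (Timm23) and 0.12 ± 0.20 (Timm17a). Tomm22 had 0.51 ± 0.29, Tomm20 0.14 ± 0.21, Tomm70a -0.20 ± 0.17 and Tomm40 -0.46 ± 0.21. The median was 0.37 with 8 of 10 above 0, against -0.02 and 47.1% over all genes, and 0 were called, against 0.102% higher and 0.628% lower. Without loess the median was -0.07 with 5 of 10 above 0, so this difference depends on the dye correction. The 3 differences share arrays and are not independent of each other.

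Light minus top gave a median of 0.11 with 7 of 10 above 0, against 0.00 and 50.5% over all genes, and 0 calls, against 0.318% higher and 0.739% lower. Timm17a was the highest at 0.60 ± 0.21, with 4.29% of genes above it. Tomm22 (-0.45 ± 0.29), Timm8b (-0.42 ± 0.21) and Timm13 (-0.25 ± 0.21) were below 0. The shift of Timm17a thus lay between the top and light fractions. Without loess the median was 0.37, and Timm8b and Timm13 were at 0.05 and 0.24, so their sign here also depends on the dye correction.

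In control siRNA cells the members lay at different places in the gradient. The log2 control signal of heavy over top was -2.59 for Timm8b, -1.57 for Timm13 and -1.47 for Tomm22, which are 3 of 10 members at least 2-fold lower in heavy polysomes, against 21.8% of genes. Above 0 were 3 of 10 members, against 45.2% of genes. Timm10 (-0.43), Timm9 (-0.35), Tomm20 (-0.28), Timm23 (-0.25) and Timm17a (0.34) lay near the median of all genes of -0.12. Tomm70a had 0.85 and Tomm40 1.70, the 1 member at least 2-fold higher, against 14.2% of genes, though Tomm40 was 0.72 when control signals were only median centred. With Eif4g3 siRNA the corresponding heavy over top values were -2.20 for Timm8b, -1.05 for Timm13, -1.41 for Tomm22, 1.06 for Timm17a, 0.71 for Tomm70a and 1.12 for Tomm40. The members' median was 0.22 with Eif4g3 siRNA and -0.32 with control siRNA, while that of all genes was -0.11 and -0.12. The control value is part of the heavy minus top difference, so both are coupled and no relation between them is given.

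The rest of the import pathway was read through 36 further genes with a probe, of which 35 were measured. Their median difference of heavy minus top was 0.08, with 22 of 35 above 0, against 49.9% of all genes. Of these 35, 0 were called higher and 1 lower, against 0.811% and 0.7% of all genes. The median was 0.21 by the software's ratio, 0.15 at a normexp offset of 0 and -0.03 without loess, where all genes had -0.09. In the top fraction 13 of 35 were above 0 (median -0.11), against 50.4% of all genes. In the heavy fraction 18 of 35 were above 0 (median 0.02), against 48.3%. There were 0 calls on either array, against 0.43% of all genes higher and 0.265% lower in the top, and 0.507% and 0.305% in the heavy fraction.

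Within that list, the genes of the import motor and of the intermembrane space relay mostly had positive differences, and the cytosolic chaperone genes had negative ones. The 6 motor genes had a median of 0.67 with 5 above 0, and the exception was Hspa9, the mitochondrial Hsp70, at -0.65 ± 0.21. Dnajc19, the J protein of the motor, had 0.88 ± 0.29 on the 1 of its 3 probes measured on both arrays. Its partner Magmas, now named Pam16, had 0.88 ± 0.30. Chchd4, the oxidoreductase that traps small TIM proteins in the intermembrane space, was the highest of the list at 0.995 ± 0.30, just short of 2-fold. Mtx2, a metaxin of outer membrane sorting, had 0.90 ± 0.31 on the 1 probe measured on both arrays. Tomm7, a small subunit of the TOM complex, had 0.85 ± 0.30, and Fxc1, now named Timm10b, a small TIM protein, had 0.78 ± 0.21. Others of these complexes were lower, with 0.20 for Tomm40l, 0.11 for Timm50, -0.01 for Tomm34 and -0.38 for Timm44. Timm8a1, the paralogue of Timm8b, had ratios of 0.32 ± 0.21 (top), -0.20 ± 0.20 (light) and 0.46 ± 0.21 (heavy), high at both ends like Timm8b. Hspa9, Magmas, Tomm7, Fxc1, Tomm40l, Timm50, Tomm34, Timm44 and Timm8a1 were chosen for mention after their values were seen.

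All 5 genes of cytosolic chaperones that hand precursors to the TOM complex were below 0, with a median of -0.39. Hspa8, the constitutive Hsp70, had -1.30 ± 0.21 and was the gene called lower, with ratios of -0.60 ± 0.15 in the heavy and 0.71 ± 0.15 in the top fraction. Hsp90ab1 had -0.99 ± 0.21. In the matrix, Trap1, a mitochondrial Hsp90, had -0.77 ± 0.32. It also had -1.21 ± 0.30 for heavy minus light, where it and Hspa8 (-1.08 ± 0.21) were the 2 genes of the list called lower, against 0.628% of all genes. Over all genes this difference had 86 lower and 14 higher calls, but 434 lower and 1125 higher without loess. Whether the calls of Trap1 and Hspa8 hold without loess was not examined.

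Other mitochondrial genes had the same sign with different sizes. The 38 measured complex I genes had a median heavy minus top difference of 0.66 (34 above 0, 5 called higher), the 44 measured genes of complexes II to IV and ATP synthase 0.54 (39 above 0, 9 called higher), and 74 mitochondrial ribosomal protein genes 0.29 (58 above 0, 6 called higher). Of all genes 49.9% were above 0 and 0.811% called higher. Without loess the medians were 0.53, 0.49 and 0.14, where all genes had -0.09. The import members, at 0.40, lay between these lists, and the 6 TIM members, at 0.60, between the 2 respiratory lists. In the top fraction the medians were -0.23 for the members, -0.37 for complex I, -0.33 for the other complexes and -0.21 for mitochondrial ribosomal proteins. In heavy polysomes they were 0.18, 0.13, 0.29 and 0.06. No difference between the lists was tested.

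**Figure D4:**
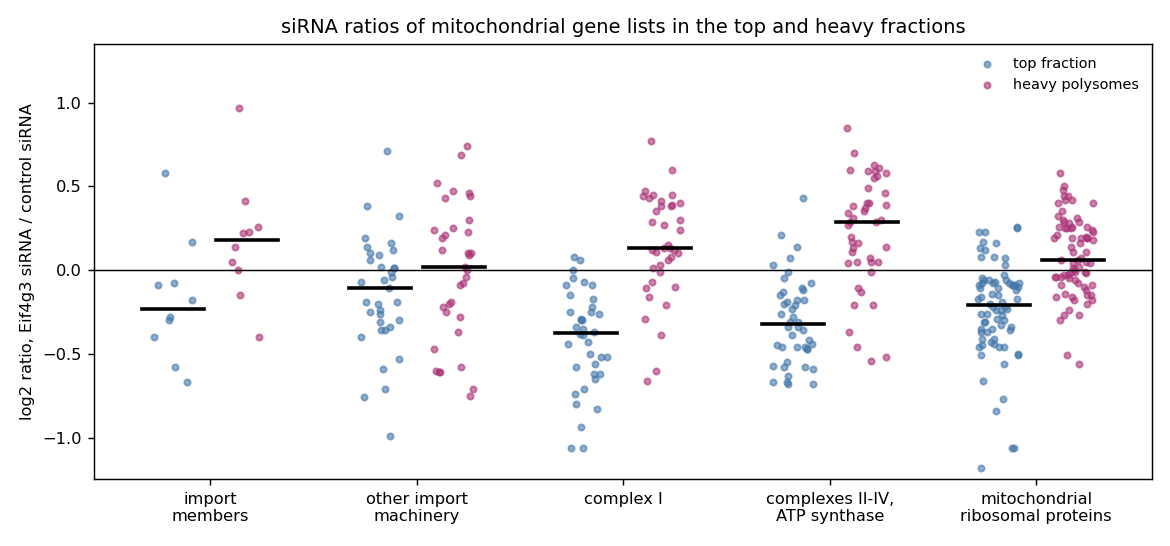
The vertical axis gives the log2 siRNA ratio, Eif4g3 over control, of each measured gene in 5 lists, in the top fraction and in heavy polysomes, with the list's median as a black bar. In each list the heavy median lies above the top median, for the import members at 0.18 against -0.23.

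The genes nearest to the members' median profile over the 3 arrays, among 4278 bright named genes, were Exosc6 of the RNA exosome (distance 0.016), Ssr3 of the endoplasmic reticulum translocon (0.030), Rgl2 (0.036), the vesicle coat GTPase gene Sar1a (0.039) and the tyrosylprotein sulfotransferase gene Tpst2 (0.052). Ssr3, for example, had -0.21, 0.01 and 0.20. The distance is Euclidean over 3 log2 ratios, and with 3 points many genes come close.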

How the data were processed

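The labels give 3 samples, 1 two-colour Agilent array per gradient fraction. The deposited scanner files, made by Feature Extraction (version 10.5.1.1 in their headers), hold linear intensity per spot and channel, with the software's log10 ratio and its error, a single-spot p-value (not used here) and flags. A value table of log2 ratios deposited by the authors was compared with these files, and its values equal the software's ratio where that is not 0 (largest difference 3.5e-06); its column medians were -0.09, -0.01 and 0.22, so no further centring was applied to these values. Probe coordinates are on mm8; exons and UTRs of that build were not used here.

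Mean signals were corrected by normexp (offset 50, local median background) and normalized by loess within arrays with control spots at weight 0, in limma 3.58.1 under R 4.3.3. Channel signals were set to a common distribution with Aquantile. Spots with outlier marks (220, 170 and 183) were left out, and 0 were saturated. A probe counted as measured when well above background in both channels, and each gene was given the mean of its measured probes. The background correction and loess were run on simulated arrays with a dye trend, noise and known changes. That simulation lacked the unequal channel brightness of the light and heavy arrays. It did not cover Aquantile or differences between arrays. All 10 members matched a current symbol in the GRCm38 table. Members, lists and alternatives were chosen with earlier results of these data known. Named were the members, Eif4g3, genes of the further import list past 2-fold or among the 3 highest and 3 lowest by heavy minus top, and the 5 nearest genes. Planned medians by protein length were not computed, since protein lengths were not used here.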

Additional observations from a re-analysis of the deposited data

Results flagged for a closer look

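In 3 of the 10 import members the siRNA ratio had opposite signs in 2 fractions, each beyond its spot error. Genes outside the members were not screened for this, so the share of all genes that meets it is not known. The count of 3 therefore cannot be read as particular to the members. Hspa8, with -0.60 in the heavy and 0.71 in the top fraction, also meets it. With 1 array per fraction these differences were not tested. Timm9 had 0.41 in heavy polysomes and -0.28 in the top fraction, a difference of 0.69, which was 0.22 without the background filter. Timm13 had 0.22 in heavy polysomes against -0.30 in the top (0.51) and -0.55 in the light fraction (0.76). Its heavy value is close to the error of 0.20 that either of its overlapping probes had alone. Tomm22 had 0.23 in heavy and -0.28 in light polysomes, a difference of 0.51. Without loess the Timm13 and Tomm22 heavy minus light differences were 0.25 and 0.06.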

How the results depend on the processing

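No paired analysis was possible because each fraction has 1 array and no replicate. The members' heavy minus top median kept its sign under all 6 alternatives (0.31 to 0.54), as did each of the 6 TIM members, while Tomm22 was -0.15 without loess and Tomm40 0.00 with the scanner software's ratio. The top median of -0.23 was -0.44 with the software's ratio and -0.09 with no background filter. Without loess, replaced by median centring over measured probes, the members' median was -0.07 for heavy minus light and 0.37 for light minus top, where all genes had -0.10 and 0.13. Timm8b passed 2-fold in heavy polysomes with its brightest probe (1.22) and under none of the other 5 alternatives. The control heavy over top median of the members stayed between -0.40 and -0.32. The filter for bright probes left 9 members in the top fraction. Medians by protein length were planned and not run.

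The Eif4g3 ratio in the top was -0.73 at an offset of 0 and -0.80 by the software. Without loess its light ratio was -0.89, short of 2-fold, and its heavy ratio -1.98. The share of all genes called at 2-fold was 0.695% in the top, 0.688% in light and 0.812% in heavy polysomes, 1.51% for heavy minus top, 0.731% for heavy minus light and 1.06% for light minus top. In that order it was 2.71%, 2.16%, 2.46%, 4.25%, 2.08% and 3.57% by the software's ratio, 1.75%, 1.38%, 1.56%, 3.14%, 1.47% and 2.59% at an offset of 0, and 0.202%, 0.285%, 0.364%, 0.523%, 0.285% and 0.335% with no background filter, which tests more genes. Without loess the light array had 1.28%, the heavy array 2.26%, and the differences 2.55%, 11.4% and 2.71%. Of the calls, the higher ones were 61.8% in the top (50.8% by the software), 57.7% in the light fraction (84.5% without loess), 53.7% for heavy minus top (66.0% by the software, 37.0% without loess), 14.0% for heavy minus light (31.3% at an offset of 0, 40.4% by the software, 72.2% without loess) and 30.1% for light minus top (40.8%, 43.8% and 76.5%). The cause of these moves was not tested. Dim signals limit the top array most.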
